A study of Mus musculus with 12 samples.

Results

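Voltage-gated sodium channels, voltage-gated calcium channels and hyperpolarization-activated HCN channels were followed at the level of their transcripts in the dorsal hippocampus of AD tau–injected and PBS-injected mice. The channel genes were taken by symbol, as the numbered Scn genes ending in a or b, all Cacna genes, the numbered Cacnb genes and the numbered Hcn genes, with a mean raw count of at least 10 over 12 mice. Of 24985 genes in the count table, 36 symbols matched and 31 reached that mean count. These 31 were 7 sodium channel pore subunits (Nav α), 4 sodium channel β subunits, 2 L-type (Cav1), 3 P/Q-, N- and R-type (Cav2) and 3 T-type (Cav3) calcium channel pore subunits, 4 α2δ subunits, 4 calcium channel β subunits and 4 HCN channels. Cacna1s was just outside the limit with a mean count of 7.92. The other genes left out, Scn4a, Cacna1f, Scn11a and Scn10a, had mean counts of 2.08, 1.08, 0.583 and 0.250. All 31 channel genes also passed the filter on low counts, which kept 14742 genes for testing.

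Wild-type C57Bl6/J mice received a single injection into the right dorsal hippocampus at 6 months of age and were studied 6 months later, 24 hours after a remote memory recall test, so that every group had undergone surgery and fear conditioning. In the PBS-control group the injection was PBS and the chow was the control diet (standard chow, TestDiet). The PBS-acetate group had the PBS injection and the high acetate diet (5% Na-acetate in LabDiet 5001), the tau-control group had 1 µg of AD-Tau, aggregated tau purified from human Alzheimer's disease brain, with the control diet, and the tau-acetate group had AD-Tau with the high acetate diet. Each group held 3 mice, and polyadenylated RNA of the injected side was sequenced in bulk, 1 library per mouse. Because tau was given as protein, no transcript in these libraries reports on the injection itself, and pathology was not measured in them.

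The deposited counts summed to between 12983233 and 20218340 per mouse, of which the channel genes held 0.485% to 0.523%. Levels are given as CPM, which are read counts scaled by TMM to a common library size, and as CPM per kb of exon where genes are compared with each other. The kb are those of all annotated exons of a gene merged, so shares and orders per kb depend on the annotated length. The labels call all mice male, but each of the 12 libraries held 13583 to 25991 counts of Xist, which is transcribed from an inactive X chromosome, and 8 Y-linked genes summed to 0 counts. These counts are those of female mice and go against the label. No pair of libraries of a group was close enough to be a repeat of the same library. Summed CPM of the CA1, CA3 and dentate granule cell marker lists was between 278 and 1028 in every mouse with no marker at 0. Comparisons used edgeR's quasi-likelihood test fitted to all 12 mice, with p-values adjusted by Benjamini-Hochberg over the 14742 genes, and the threshold for a call was an adjusted p of 0.1. In bulk tissue, fewer cells of a type and less RNA per cell cannot be told apart.

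Sodium channels carry the fast inward current of the action potential, with Nav α forming the pore and the β subunits setting its gating and surface placement. Calcium channels turn depolarization into calcium entry: L-type channels signal to the nucleus, P/Q- and N-type channels trigger transmitter release at hippocampal synapses, and T-type channels open near the resting potential and favour bursts. Their α2δ and β subunits bring the pore to the membrane, while HCN channels open on hyperpolarization and dampen dendritic excitability in CA1 pyramidal cells.

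Across the sodium channel pores, Scn8a (Nav1.6, the main channel of the mature axon initial segment) and Scn2a (Nav1.2, an axonal and dendritic channel of excitatory neurons) were the most abundant per exon length, at means of 35.7 and 31.3 CPM per kb over 12 mice. They made up 41.6% and 36.5% of the summed Nav α level per length, and Scn1a (Nav1.1, prominent in fast-spiking interneurons) made up 13.5%. Scn8a measured 557, 562 and 538 CPM in PBS-control mice, 531, 570.2 and 543 in PBS-acetate, 553, 558 and 593 in tau-control and 597, 576 and 568 in tau-acetate. The 12 values overlapped between all groups except that each tau-acetate mouse was above each PBS-control mouse. Scn3a, the embryonic-type channel Nav1.3, was at 6.51 CPM per kb. Near the floor, Scn7a (a sodium-sensing channel) and Scn9a (Nav1.7, of sensory neurons) averaged 0.479 and 0.113 CPM per kb. The genes Scn3a, Scn2a, Scn1a, Scn9a and Scn7a lie in a cluster between positions 65457118 and 66784914 of chromosome 2 (GRCm38), so abundant and nearly silent pores were neighbours there.

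Among the β subunits, Scn2b, which is linked to the pore by a disulfide bond, and Scn3b, a non-covalently bound β subunit, were at 71.5 and 71.4 CPM per kb, and Scn4b, tied to resurgent current, was at 8.71. Scn2b and Scn4b are neighbours on chromosome 9, 45117782 to 45130070 and 45138395 to 45154152, yet differed in level and steadiness: the spread within groups, as a coefficient of variation, was 2.82% for Scn2b and 20.2% for Scn4b. Tau-control mouse 2 decided the latter, with 18.8 CPM of Scn4b against 35.3 to 55.4 CPM in the other 11 mice.

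Calcium channel pores were led by Cav2. Cacna1e (the R-type channel), Cacna1a (the P/Q-type channel) and Cacna1b (the N-type channel) stood at 19.1, 17.8 and 14.9 CPM per kb, or 36.9%, 34.3% and 28.8% of the summed Cav2 level. Cacna1e measured 459, 486 and 409.6 CPM in PBS-control mice, 495, 507 and 455 in PBS-acetate, 454, 527 and 527 in tau-control and 500.4, 470.1 and 499 in tau-acetate, and all 4 groups overlapped. The L-type pores Cacna1c (Cav1.2) and Cacna1d (Cav1.3, which opens at lower voltage) were less abundant per exon length, at 7.23 and 5.60 CPM per kb. Without the division by length, Cacna1c was at 153 CPM (21.2 kb of exon) and Cacna1b at 149 CPM (9.94 kb). Within the T-type pores, Cacna1h (Cav3.2) held 59.7% of the summed level at 19.0 CPM per kb, Cacna1i (Cav3.3) was at 8.03 and Cacna1g (Cav3.1) at 4.81 CPM per kb. Cacna1h measured 153, 199 and 180.1 CPM in PBS-control mice, 167, 206 and 200.4 in PBS-acetate, 175, 151 and 200.0 in tau-control and 220.0, 173 and 202 in tau-acetate, a wide scatter within every group.

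Of the auxiliary calcium channel subunits, Cacna2d1, the α2δ subunit that binds gabapentin, held 55.8% of the α2δ level at 22.7 CPM per kb, ahead of Cacna2d3 (15.2), Cacna2d2 (2.62) and Cacna2d4 (0.165). Cacnb3 led the calcium channel β subunits at 55.0 CPM per kb, followed by Cacnb1 (35.0), Cacnb4 (20.9) and Cacnb2 (6.11). Cacnb3 measured 218, 212 and 221 CPM in PBS-control mice, 199, 218 and 221 in PBS-acetate, 225, 245 and 211 in tau-control and 208, 227 and 244 in tau-acetate, so the groups overlapped. The HCN family was dominated by Hcn2, with 85.4% of the summed level at 45.4 CPM per kb. Hcn3 and Hcn4 (the sinoatrial and thalamic channel) reached 2.50 and 0.366 CPM per kb. Hcn2 measured 138, 153 and 143 CPM in PBS-control mice, 139, 151 and 138 in PBS-acetate, 151, 127 and 137 in tau-control and 153, 157 and 151 in tau-acetate, and the tau-acetate mice were at the upper end, though their lowest mouse was level with the highest tau-control and PBS-acetate mice.

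**Figure D1:**
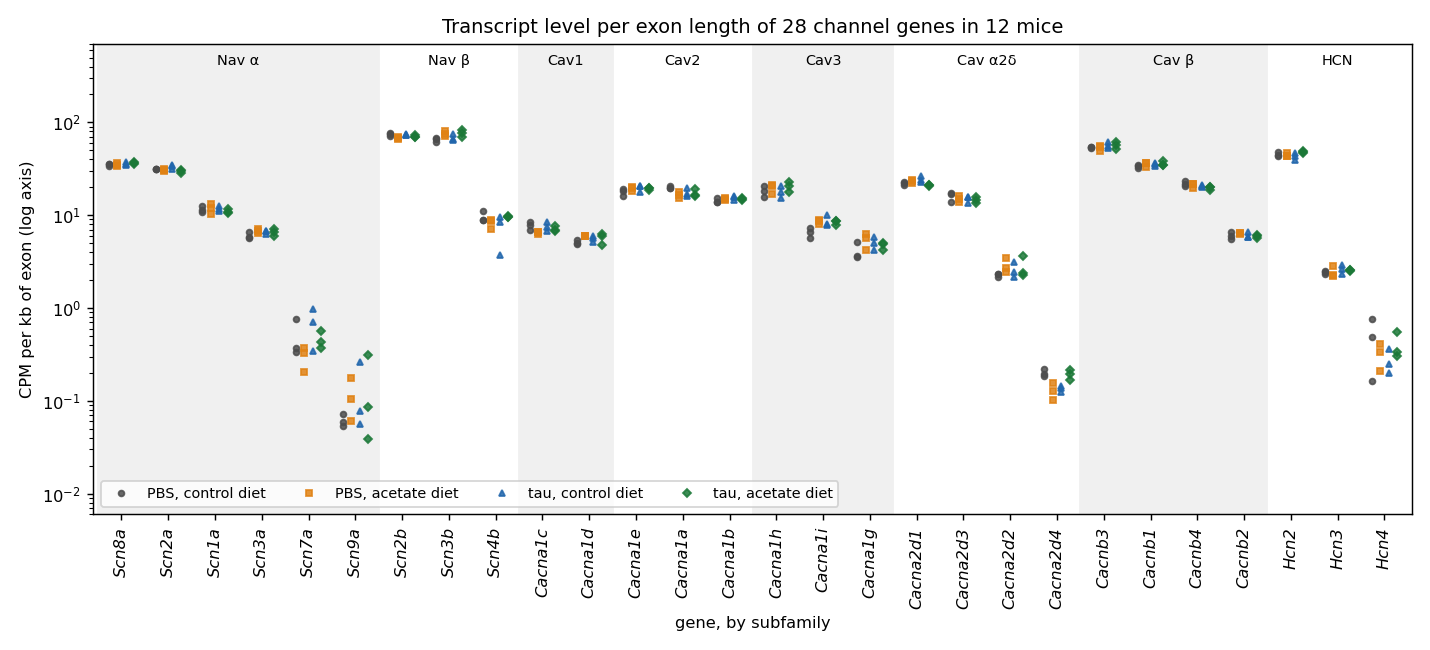
Level per exon length (CPM per kb, log axis) of 28 of the 31 channel genes, ordered within subfamilies by mean level, with 1 point per mouse and the 4 groups in separate colours and symbols. Scn2b and Scn3b lie above 70 CPM per kb on average, and Scn7a, Hcn4, Cacna2d4 and Scn9a lie below 0.5 on average. Scatter is wide for Scn7a (up to 0.976 in a single mouse), Hcn4 (up to 0.770) and Scn9a, and narrower for Cacna2d4.

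In the order of levels per length, most neighbours did not differ beyond the range over 12 mice. The ranges were separate between Cacnb3 and Hcn2, Hcn2 and Scn8a, Scn2a and Cacna2d1, Cacna1b and Scn1a, and Hcn3 and Scn7a. For 26 of the 31 genes, the lowest mouse had at least 5 CPM, and Scn7a, Hcn4, Cacna2d4 and Scn9a were among the others. Exons shared with a gene on the opposite strand made up 17.1% of Hcn3 (with Pklr) and 16.0% of Cacnb4 (with A430018G15Rik). The counting was set to 1 strand, but the labels name a directional library kit and the methods a kit number without that word, so these 2 levels are uncertain.

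By edgeR's test, only 2 of the comparisons called channel genes. The genes with the lowest adjusted p were Cacna1i for acetate in PBS-injected mice and Cacna2d1 for the difference between the acetate effects. The sequences upstream of these 2 genes are shown to set their values beside the DNA before their annotated starts. Each is the 250 bases before the RefSeq start on GRCm38.p6, both on the plus strand, at chr15:80286988-80287237 and chr5:15934441-15934690. Capitals mark TGACG, the core of the cyclic AMP response element, and GGGCGG, the GC box, on either strand.
Cacna1i: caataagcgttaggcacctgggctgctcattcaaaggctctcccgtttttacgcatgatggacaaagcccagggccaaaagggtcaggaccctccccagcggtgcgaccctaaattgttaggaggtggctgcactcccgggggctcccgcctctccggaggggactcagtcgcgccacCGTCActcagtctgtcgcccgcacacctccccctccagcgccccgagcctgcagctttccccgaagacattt
Cacna2d1: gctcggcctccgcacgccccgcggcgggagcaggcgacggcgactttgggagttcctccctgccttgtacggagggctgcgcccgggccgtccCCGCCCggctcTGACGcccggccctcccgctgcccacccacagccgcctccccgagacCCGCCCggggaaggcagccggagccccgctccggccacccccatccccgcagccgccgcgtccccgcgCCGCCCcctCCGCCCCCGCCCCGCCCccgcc
The Cacna1i window has 62.4% GC and 16 CpG, 1 TGACG and no GGGCGG, and the Cacna2d1 window has 82.4% GC and 36 CpG, 1 TGACG and 6 GGGCGG, some of which overlap. Over all 21917 RefSeq promoter windows the medians were 55.6% GC and 10 CpG, 20.6% held TGACG and 42.7% held GGGCGG. Of the channel genes, 21 had an entry, with 31 windows in all, of which 16.1% held TGACG and 41.9% GGGCGG, close to the shares over all windows. A match is a description of letters and not a binding site.

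Of the channel genes, 4 of 31 passed the test for acetate in PBS-injected mice. Cacna1i, the T-type pore Cav3.3, and Scn3b rose, by 1.30-fold and 1.17-fold, and Cacna1a, the P/Q-type pore, and Cacna1c, the L-type pore Cav1.2, fell to 0.827 and 0.837 of the PBS-control level. These 4 were 12.9% of the channel genes, against 8.84% of all genes tested, so the share was near that of all genes. Both shares rested on single libraries: without PBS-acetate mouse 1, PBS-acetate mouse 2 or PBS-control mouse 3, edgeR called 2.11%, 0.101% and 1.66% of all genes tested and 0, 0 and 1 of the channel genes, and without PBS-control mouse 1 it called 4.87% of all genes and 3 channel genes. In each direction the 2 calls were 6.45% of the channel genes, against 3.99% of all genes higher and 4.85% lower. The median log2 fold change was 0.02 among channel genes and 0.00 among all genes tested. By subfamily, 1 of 3 Cav2, 1 of 2 Cav1, 1 of 3 Cav3 and 1 of 4 Nav β genes were called, and 0 of 7 Nav α, 4 α2δ, 4 calcium channel β and 4 HCN genes, by edgeR at an adjusted p below 0.1. At an unadjusted p below 0.05, 9 channel genes differed (29.0%, against 20.8% of all genes tested).

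Cacna1i (chromosome 15, 80287238 to 80398279) measured 71.4, 65.9 and 56.1 CPM in PBS-control mice and 85.8, 87.6 and 78.5 in PBS-acetate mice. Every PBS-acetate mouse was above every PBS-control mouse, with means of 64.5 ± 7.78 and 83.9 ± 4.79 CPM (SD, n = 3 mice each). The log2 fold change was 0.38 (SE 0.10, 95% interval 0.17 to 0.59, adjusted p = 0.0450 by edgeR's quasi-likelihood test). The tau-control values of 78.2, 98.8 and 80.0 CPM and the tau-acetate values of 76.9, 86.3 and 84.5 CPM were also all above the PBS-control mice, so the PBS-control group was the low one. The call was lost without PBS-control mouse 3, PBS-acetate mouse 1 or PBS-acetate mouse 2, with adjusted p = 0.152, 0.128 and 0.192 for Cacna1i and log2 fold changes of 0.29, 0.37 and 0.35.

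Scn3b (chromosome 9, 40269217 to 40291618) measured 368, 362 and 332 CPM in PBS-control mice and 394, 437 and 413 in PBS-acetate mice, which did not overlap. The log2 fold change was 0.23 (SE 0.07, 95% interval 0.08 to 0.37, adjusted p = 0.0697 by edgeR). Tau-control mice were at 411, 356 and 358 CPM and tau-acetate mice at 377, 424 and 449 CPM, so both diets overlapped among tau-injected mice. Leaving out PBS-control mouse 2 or 3 or any PBS-acetate mouse ended the call of Scn3b, with adjusted p of 0.108 to 0.269 and log2 fold changes of 0.18 to 0.27 by edgeR.

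Cacna1a (chromosome 8, 84388440 to 84640246) measured 227, 234 and 222 CPM in PBS-control mice and 177, 187 and 202 in PBS-acetate mice. All 3 PBS-control mice were higher, by a log2 fold change of -0.27 for acetate (SE 0.08, 95% interval -0.44 to -0.11, adjusted p = 0.0644 by edgeR). Tau-control mice measured 193, 182 and 224 CPM and tau-acetate mice 220.1, 187 and 184 CPM, each group spanning most of the gap. The call of Cacna1a was lost without any of the 3 PBS-control mice or without PBS-acetate mouse 1 or 2, at adjusted p of 0.126 to 0.226 by edgeR, with log2 fold changes of -0.29 to -0.22.

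Cacna1c (chromosome 6, 118587240 to 119196418) measured 166, 181 and 148 CPM in PBS-control mice and 139, 133 and 142 in PBS-acetate mice. The groups did not overlap, although the gap between the nearest mice was small beside the spread of the PBS-control group. The log2 fold change was -0.26 (SE 0.08, 95% interval -0.43 to -0.08, adjusted p = 0.0887 by edgeR). Tau-control values were 143, 159 and 177 CPM and tau-acetate values 163, 147 and 142 CPM. This was the least steady of the 4 calls: it was lost in 7 of 12 fits that left out a mouse (PBS-control mouse 1 or 2, any PBS-acetate mouse, tau-control mouse 2 or tau-acetate mouse 2), at adjusted p of 0.103 to 0.300 for Cacna1c by edgeR, and with library totals in place of TMM or without the filter on low counts. Cacna1d, the other L-type pore, measured 64.1, 68.2 and 61.4 CPM in PBS-control mice and 75.8, 76.0 and 76.1 in PBS-acetate mice, with a log2 fold change of 0.24 (SE 0.08) and an adjusted p of 0.114 by edgeR. The share of Cacna1c in the summed L-type level per length was 58.9% to 61.3% in PBS-control mice and 51.1% to 52.6% in PBS-acetate mice.

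In the fits without PBS-acetate mouse 1 or 2, where edgeR called 0 of the 31 channel genes, 9 and 6 were at an unadjusted p below 0.05, and the 1 called without PBS-control mouse 3 was Cacna1c. The Wald test of DESeq2, also fitted to 12 mice, called 6 (9.29% of all genes given an adjusted p), Scn2b among them. Scn2b measured 350.0, 331 and 356 CPM in PBS-control mice and 319, 305 and 321 in PBS-acetate mice, a small separation. By edgeR, which did not call it, Scn2b had a log2 fold change of -0.13 (SE 0.05) and an adjusted p of 0.106. In all, 8 of 31 channel genes (25.8%) had no overlap between PBS-control and PBS-acetate mice, against 26.3% of all genes tested.

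**Figure D2:**
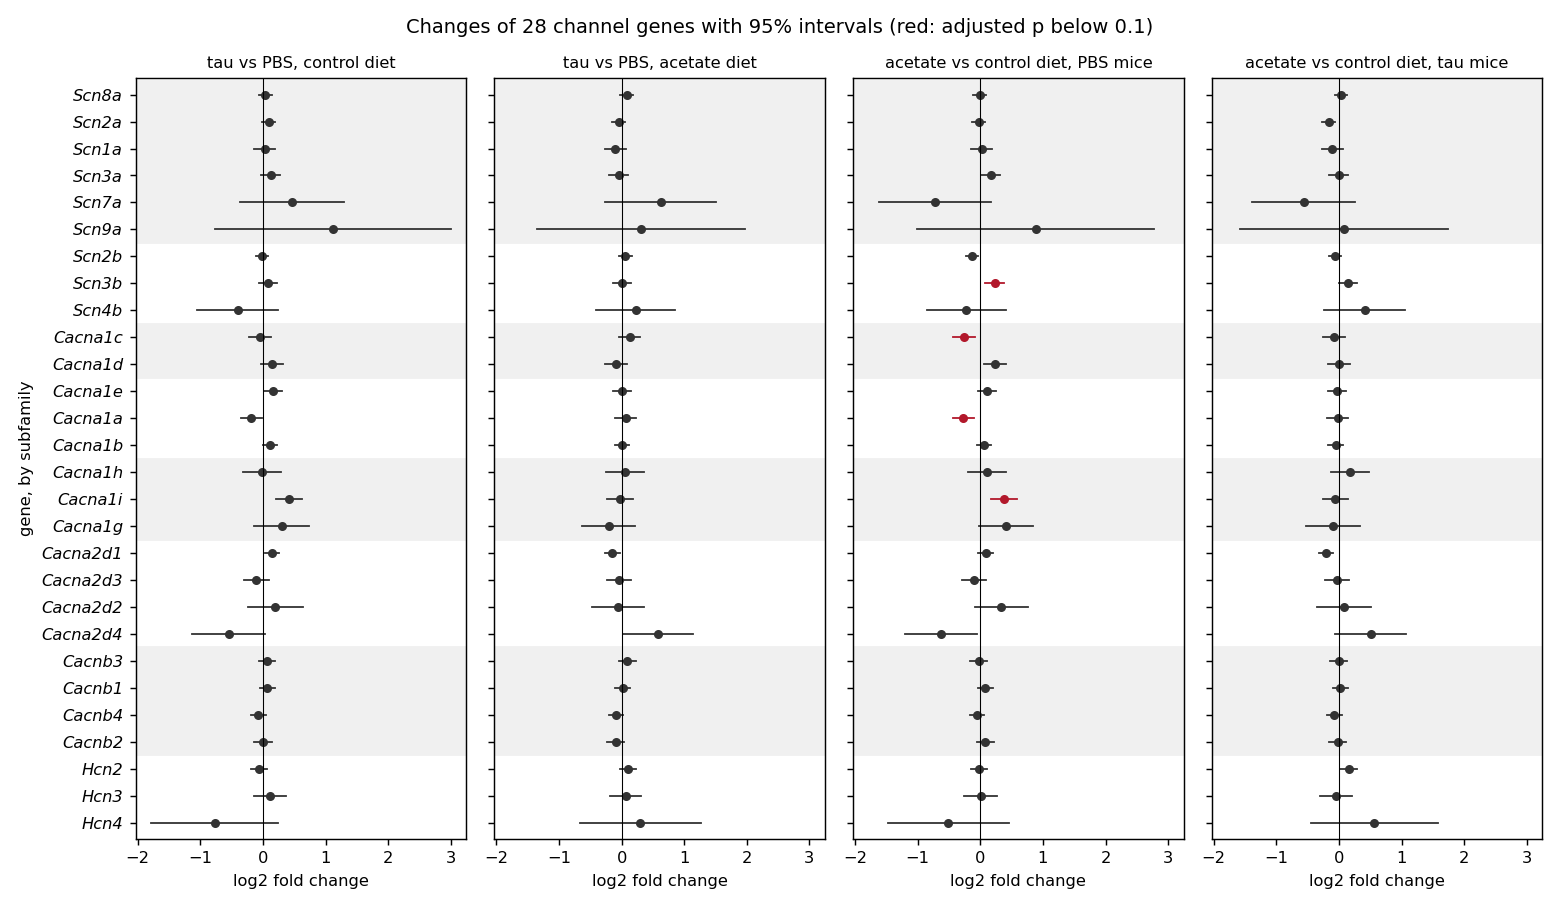
Log2 fold change (points) and 95% interval (lines) of 28 channel genes in the 4 comparisons between groups, from edgeR fitted to all 12 mice, with genes ordered by subfamily as in the plot of levels. Red marks an adjusted p under 0.1, which held for Scn3b, Cacna1c, Cacna1a and Cacna1i in the acetate comparison of PBS-injected mice and for no gene in the other panels.

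Markers of cell types and regions moved in the same comparison. All 5 CA1 markers were above 0 in log2 fold change and 3 were called higher, with summed levels of 482 to 639 CPM in PBS-control and 765 to 1028 CPM in PBS-acetate mice. All 6 CA3 markers were below 0 and 4 were called lower (518 to 621 against 278 to 463 CPM), as were all 8 oligodendrocyte markers, 3 of them called (7146 to 9214 against 4473 to 6163 CPM). These sums separated the groups as completely as the 4 called channel genes did. Of 17 lists with more than 1 tested marker, 3 sums were higher and 5 lower on acetate without overlap. The others higher were inhibitory neurons (658 to 700.4 against 734 to 813 CPM) and striatum (75.2 to 81.9 against 83.4 to 90.8 CPM). The others lower were the pan-neuronal, choroid plexus and thalamus sums given below. All 4 CA2 markers were below 0 and all 5 mural markers above. Of 6 pan-neuronal markers 5 were below 0 and 2 called lower (5920 to 6517 against 4975 to 5737 CPM), and of 6 choroid plexus markers 5 were below 0 and 2 called lower (84.0 to 116 against 63.7 to 79.1 CPM). All 6 thalamus markers were below 0 without a call (72.7 to 238 against 51.2 to 62.8 CPM). The OPC, astrocyte and striatum lists had 1 call in each direction, the neocortex list 1 call higher, and the CA2, dentate granule, inhibitory neuron, microglia, endothelial, mural and meningeal lists 0 by edgeR. No marker of the lists was at 0 in all mice apart from 4 of 5 blood markers, all haemoglobin genes. The part of these markers in the channel gene results was not tested.

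**Figure D3:**
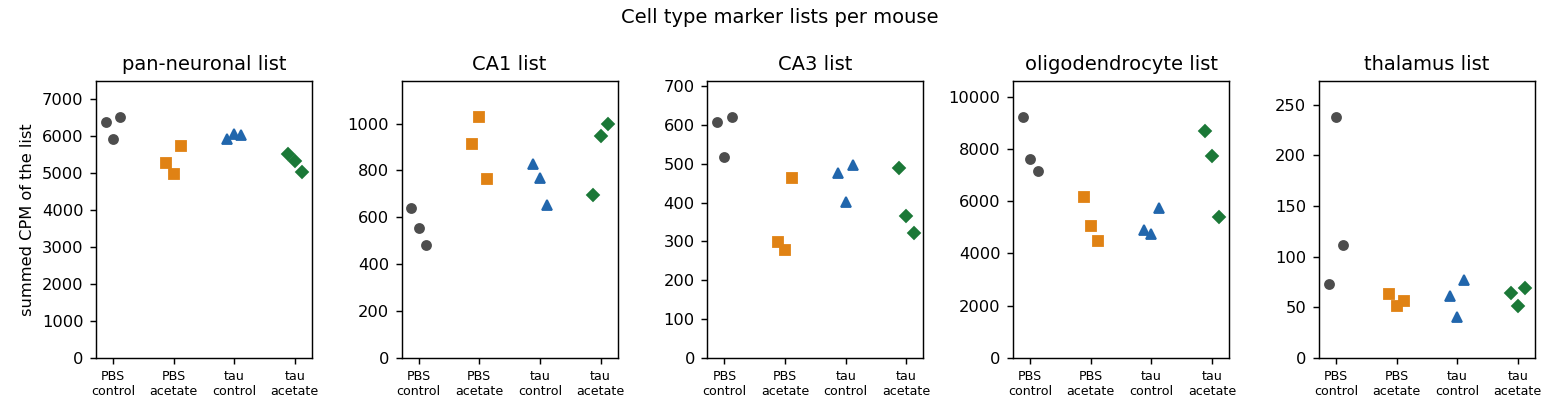
Summed CPM of 5 marker lists in each mouse (1 point per mouse, 4 groups on the horizontal axis, vertical axes starting at 0). The CA1 sums of PBS-control mice lie between 482 and 639 and those of PBS-acetate mice between 765 and 1028, the CA3 and oligodendrocyte sums are separated the other way, and 1 PBS-control mouse has 238 CPM of thalamus markers.

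Transcripts of proteins that bind these channels, and of the separate NALCN leak channel and its subunits, were counted in the same way. A list of 40 such genes, called partners here, had 35 genes tested. It held fibroblast growth factor homologous factors, ankyrin and spectrin, the NALCN leak channel, Cacng, Stac, RGK and Rim proteins and calmodulins, among others. In PBS-acetate against PBS-control mice, 7 of 35 (20.0%, against 8.84% of all genes tested) were called, 2 higher and 5 lower. The count became 0 without PBS-acetate mouse 1 or 2, 1 without PBS-control mouse 3, 4 without PBS-control mouse 1 or 2 and 10 without PBS-acetate mouse 3. Pex5l (TRIP8b, which traffics HCN channels into dendrites) rose by 0.50 on the log2 scale (SE 0.14, adjusted p = 0.0738 by edgeR), from 237 to 320.3 CPM in PBS-control mice to 333 to 442 CPM in PBS-acetate mice. Stac, an adaptor of L-type channels, rose by 1.03 (SE 0.31, adjusted p = 0.0788 by edgeR), from 3.11 to 5.88 CPM to 7.35 to 10.9 CPM. Lower were Cacng2 (stargazin, a receptor and channel auxiliary subunit, -0.28 in log2 fold change), Rem2 (a GTPase that inhibits calcium channels, -0.59), Rims1 (which tethers presynaptic calcium channels, -0.35), Stac2 (-0.34) and Fgf13 (which modulates sodium channel inactivation, -0.22), with adjusted p of 0.0268, 0.0433, 0.0530, 0.0531 and 0.0617 by edgeR. None of the 35 partners was called by edgeR in the other comparisons (DESeq2 called 1 for acetate in tau-injected mice and 1 in the interaction), where the medians of their log2 fold changes lay between -0.06 and 0.01.

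On the control diet, AD tau–injected mice had no channel gene that passed the test: edgeR called 0 of 31 against PBS-injected mice, where 0.0136% of all genes tested were called. At an unadjusted p below 0.05 there were 6 (19.4%, against 9.65% of all genes tested), among them Cacna1i, Cacna2d1 and Cacna1e on the higher side and Cacna1a on the lower. Without tau-control mouse 2 the 6 became 1. The smallest p was that of Cacna1i, with the values given above, a log2 fold change of 0.41 (SE 0.10, 95% interval 0.20 to 0.62) and an adjusted p of 0.276 by edgeR. DESeq2's Wald test called it, at an adjusted p of 0.0323, and no other channel gene, against 0.688% of all genes given an adjusted p (4 channel genes had none). This comparison and the acetate comparison of PBS-injected mice share the 3 PBS-control mice, whose Cacna1i was low. The median log2 fold change was 0.07 over the channel genes and -0.00 over all genes tested.

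The 7 sodium channel pores were above 0 in tau-control against PBS-control mice in the fit to 12 mice, against 49.7% of all genes tested, and none was called. This tally was not tested, and Scn1a, at 0.03 in log2 fold change, was at -0.02 without tau-control mouse 3 and -0.01 without PBS-control mouse 3. Scn2a measured 399, 398 and 399 CPM in PBS-control mice and 400.4, 439 and 436 in tau-control mice, a separation that rested on a narrow PBS-control group (log2 fold change 0.09, SE 0.05, adjusted p = 0.580 by edgeR). Tau-control mouse 2 also had the highest Scn7a (7.16 CPM) and the next highest Scn9a (3.32 CPM, after 3.98 CPM in tau-acetate mouse 3), beside the lowest Scn4b. Markers of oligodendrocytes (all 8), CA3 (all 6), thalamus (all 6) and CA2 (all 4) were below 0 in this comparison too, and those of CA1, mural and meningeal cells (all 5 each) and OPCs (all 3) above, with 0 called by edgeR. From PBS-control to tau-control mice the sums went without overlap from 7146 to 9214 CPM to 4736 to 5737 CPM for oligodendrocytes and from 518 to 621 CPM to 402 to 497 CPM for CA3. They were higher without overlap for CA1 (654 to 826 CPM in tau-control mice), inhibitory neurons (746 to 778 CPM), microglia (251 to 256 against 261 to 277 CPM) and, by less than 1 CPM between the nearest mice, mural cells (105 to 113.6 against 114.5 to 146 CPM). Their part in these differences was not tested. In 6 of 31 channel genes (19.4%, against 13.5% of all genes tested) the groups did not overlap.

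On the acetate diet, no channel gene passed the test between tau-acetate and PBS-acetate mice. edgeR called 0 of 31 channel genes (0.136% of all genes tested) and DESeq2 called 0 (0.674% of all genes given an adjusted p), with 2 at an unadjusted p below 0.05 (6.45%, against 10.3%). These were Cacna2d1, with a log2 fold change of -0.15 (SE 0.05, adjusted p = 0.361 by edgeR), and the sparsely counted Cacna2d4, at 0.58 (SE 0.27, adjusted p = 0.460). Cacna2d4 measured 1.49, 0.980 and 1.21 CPM in PBS-acetate mice and 1.59, 2.06 and 1.86 CPM in tau-acetate mice, without overlap. No overlap was seen in 8 channel genes (25.8%, against 16.2% of all genes tested). Of the 26 genes above 5 CPM in every mouse, 24 are reported here, with log2 fold changes from -0.20 (Cacna1g) to 0.23 (Scn4b) as estimates. The median SE of all 26 was 0.07. All 8 oligodendrocyte (median log2 fold change 0.47), all 6 CA3 (0.20), all 6 choroid plexus (2.20) and all 3 OPC markers (0.05) were above 0 in this comparison with 0 called by edgeR, and microglia sums were higher without overlap (251 to 265 against 271 to 315 CPM). The choroid plexus sums were 78.2, 79.1 and 472 CPM in tau-acetate mice against 63.7 to 79.1 CPM in PBS-acetate mice. The high sum was thus that of tau-acetate mouse 3 alone. The part of these markers in the Cacna2d1 and Cacna2d4 values was not tested.

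Among AD tau–injected mice, no channel gene was called for acetate by edgeR (0 of 31, against 0.0611% of all genes tested), whereas DESeq2 called 2, Cacna2d1 and Scn2a, both lower on acetate, against 2.19% of all genes given an adjusted p (6 channel genes had none). Cacna2d1 measured 283, 328 and 294 CPM in tau-control mice and 257, 262 and 266 in tau-acetate mice, without overlap, with a log2 fold change of -0.21 (SE 0.05, adjusted p = 0.208 by edgeR and 0.0607 by DESeq2). Scn2a measured 400.4, 439 and 436 CPM in tau-control mice and 392, 365 and 382 CPM in tau-acetate mice, also apart, with a log2 fold change of -0.16 (SE 0.05, adjusted p = 0.251 by edgeR and 0.0735 by DESeq2). Hcn2, the main HCN channel, had the next smallest p among the well counted genes, at 0.15 (SE 0.06, adjusted p = 0.381 by edgeR). In total 5 channel genes were at an unadjusted p below 0.05 (16.1%, against 10.9%) and 5 showed no overlap (16.1%, against 14.4% of all genes tested). All 8 oligodendrocyte markers were above 0, with sums of 4736 to 5737 CPM in tau-control and 5402 to 8684 CPM in tau-acetate mice, and all 6 CA3 markers were below 0 and all 5 dentate granule and all 6 choroid plexus markers above, with 0 called by edgeR. The choroid plexus sums were 78.2, 79.1 and, in mouse 3, 472 CPM in tau-acetate mice, against 90.7 to 199 CPM in tau-control mice. The pan-neuronal sum was lower without overlap, at 5935 to 6054 CPM in tau-control and 5025 to 5523 CPM in tau-acetate mice, with 5 of 6 markers below 0 and a median log2 fold change of -0.11 beside the -0.16 of Scn2a. Sums were higher without overlap for dentate granule cells (469 to 570.0 against 580.4 to 657 CPM), astrocytes (1390 to 1505 against 1530 to 1656 CPM) and striatum (70.3 to 82.1 against 83.3 to 92.3 CPM). The part of these markers in the channel values was not tested.

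The question whether acetate acted differently by injection was put to the interaction, the acetate effect in tau-injected mice minus that in PBS-injected mice. Cacna2d1 (chromosome 5, 15934691 to 16374511), the α2δ-1 subunit, was the 1 channel gene called (3.23%, against 1.56% of all genes tested). Its PBS-control values of 274, 282 and 265 CPM were mostly below the PBS-acetate values of 291, 298 and 279.6 CPM, while tau-acetate was below tau-control as given above. The acetate effect was 0.08 (SE 0.05) on the log2 scale in PBS-injected mice and -0.21 (SE 0.05) in tau-injected mice, a difference of -0.29 (SE 0.08, 95% interval -0.45 to -0.13, adjusted p = 0.0947 by edgeR). The call of Cacna2d1 was near the threshold and was lost without any 1 of 9 mice (each PBS-control and PBS-acetate mouse, tau-control mouse 2, tau-acetate mouse 1 or 2), with adjusted p of 0.100 to 0.264, and with DESeq2's size factors in the edgeR fit (adjusted p = 0.102). Group means were 273 ± 8.51, 289.6 ± 9.43, 302 ± 23.8 and 262 ± 4.33 CPM (SD, n = 3 mice) in the order PBS-control, PBS-acetate, then tau-control, tau-acetate.

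Channel genes with an interaction at an unadjusted p below 0.05 included Cacna1i (-0.44, SE 0.14), Cacna1a (0.26, SE 0.11) and Cacna2d4 (1.13, SE 0.39) in log2 difference of acetate effects, with adjusted p of 0.169, 0.349 and 0.194 by edgeR. In all, 6 channel genes were at that level (19.4%, against 13.0% of all genes tested), and DESeq2 called 3 (2.80% of all genes given an adjusted p), Cacna2d1 and Cacna1i among them. Scn3b was above 0 for acetate in both injections, at 0.23 and 0.15 on the log2 scale, with an interaction of -0.08 (SE 0.10, 95% interval -0.28 to 0.13, adjusted p = 0.804). In this difference all 8 oligodendrocyte, all 6 CA3, all 6 thalamus and all 4 CA2 markers were above 0 and all 5 mural markers below, with 0 of these called by edgeR. Of the other lists, 1 astrocyte and 1 choroid plexus marker were called higher, and the part of the markers in the channel values was not tested.

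**Figure D4:**
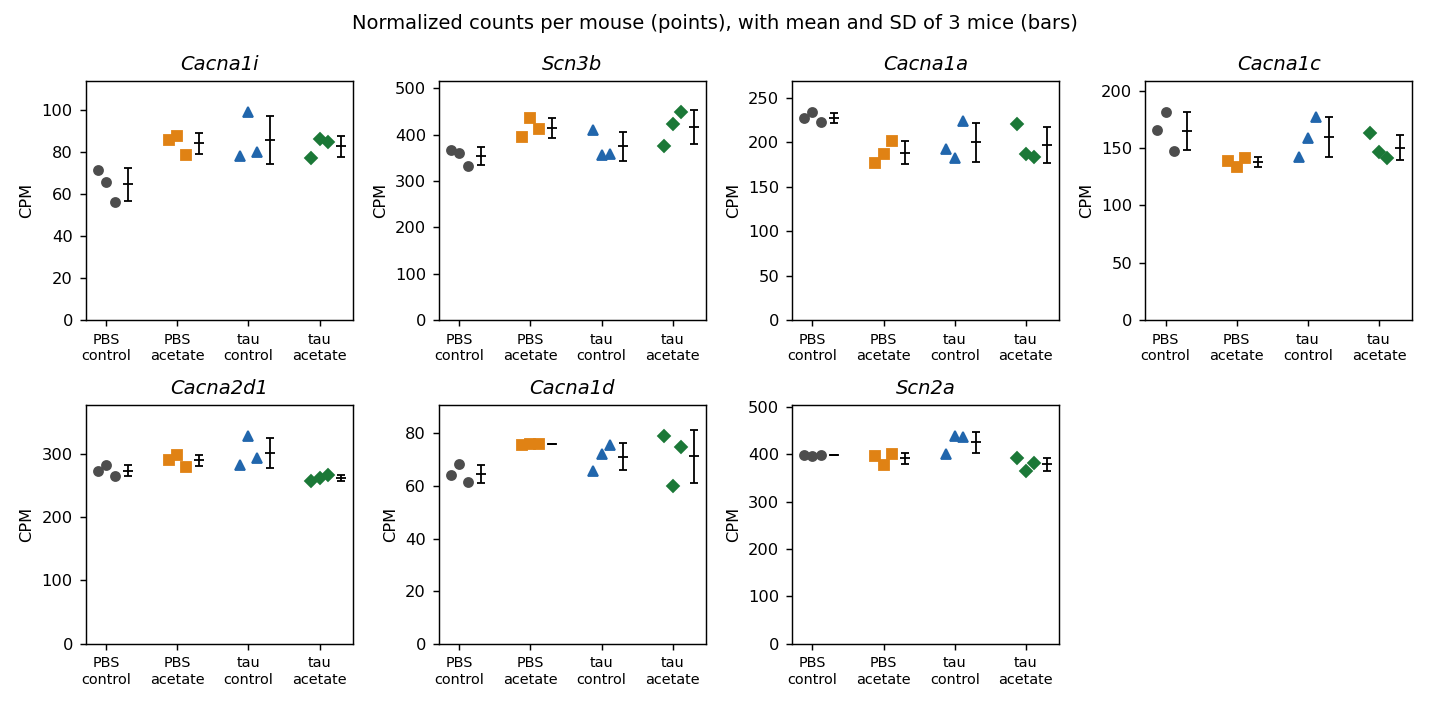
CPM of 7 channel genes in each mouse (coloured points) with the mean and SD of 3 mice (black) for the 4 groups, on vertical axes that start at 0. PBS-control is lowest for Cacna1i (56.1 to 71.4 CPM) and highest for Cacna1a (222 to 234 CPM), and tau-acetate is lowest for Cacna2d1 (257 to 266 CPM).

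**Figure D5:**
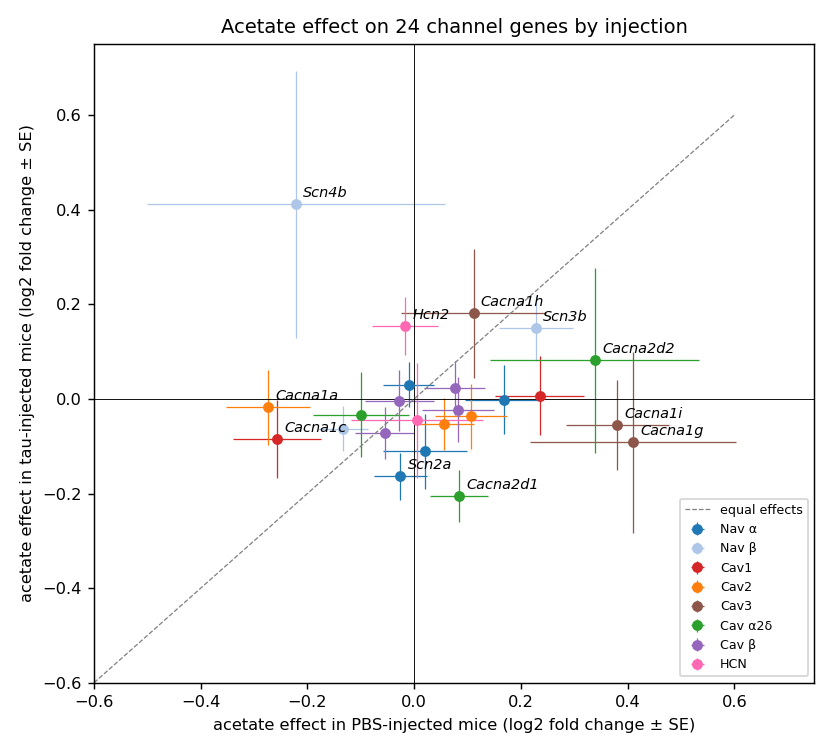
Acetate effect on 24 of the 26 channel genes above 5 CPM in every mouse, in PBS-injected mice (horizontal axis) and tau-injected mice (vertical axis), as log2 fold changes with SE bars and colours for subfamilies. The dashed line marks equal effects, Cacna2d1 lies below it at 0.08 and -0.21, and Cacna1i lies to the right at 0.38 with a tau-injected value of -0.06.

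Levels per length were also summed by subfamily, and group means of the Cav3 sum ran from 28.8 (PBS-control) to 33.5 CPM per kb (PBS-acetate). Calcium channel β summed to 111 to 124 CPM per kb over the 12 mice, Nav α to 82.6 to 92.2, HCN to 48.7 to 57.0, Cav2 to 49.5 to 56.2, α2δ to 38.5 to 43.2, Cav3 to 26.5 to 35.7 and Cav1 to 11.7 to 14.4 CPM per kb. The α2δ sum was lowest in the tau-acetate group, 38.5 to 38.9 CPM per kb against 40.7 to 43.2 in tau-control and 39.3 to 41.7 in PBS-control mice. Of the low genes, Hcn4 was highest in PBS-control mouse 2 (4.71 CPM, against 0.990 to 3.40 CPM in the other 11 mice), the mouse with 238 CPM of summed thalamus markers, and Scn9a was highest in tau-acetate mouse 3, the mouse with 472 CPM of summed choroid plexus markers. Whether these markers had a part in either value was not tested.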

How the data were processed

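Dorsal hippocampal RNA of 12 mice was analysed, 3 in each of 4 groups taken from the sample labels. The authors aligned reads to GRCm38 with STAR 2.5.2a and counted them per gene with HTSeq 0.9.1 on the reverse strand, and they deposited raw counts for 24985 genes. No column of samples was left unused. In R 4.3.3, genes were kept by filterByExpr (minimum count 10, minimum total 15), scaled by TMM and fitted with edgeR 4.0.16's robust quasi-likelihood model, with 1 mean per group, 8 residual degrees of freedom and Benjamini-Hochberg adjustment over 14742 genes. Totals of 12983233 to 20218340 per mouse limited the precision of sparsely counted genes, and variation among mice (common biological coefficient of variation 7.25%) limited that of all genes. Intervals are at 95%. Exon lengths and gene coordinates were taken from GENCODE mouse release M21 and promoters from RefSeq, both on GRCm38.

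Values per mouse were given for channel genes called in any comparison, the most abundant per length of each subfamily and the smallest p of each comparison. Others with values per mouse (Cacna1d, Scn2a, Scn2b, Cacna2d4) were added after their values were seen. The channel genes, partners and marker lists were chosen with earlier results of these data known. Alternatives were DESeq2 1.42.0's Wald test and its size factors, library totals, no filter, the 6 compared mice alone, an adjusted p below 0.05, a replicate block and each mouse left out. The functions were tested on simulated data. Results for 3 of the channel genes are not reported here.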

Additional observations from a re-analysis of the deposited data

Results flagged for a closer look

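Cacna2d1, the α2δ-1 calcium channel subunit, differed in its response to acetate between injections by a tested interaction, with an acetate effect in tau-injected minus PBS-injected mice of -0.29 on the log2 scale (SE 0.08, adjusted p = 0.0947 by edgeR). Tau-acetate mice (257 to 266 CPM) lay below tau-control mice (283 to 328 CPM) in 3 of 3 mice, and PBS-acetate mice (279.6 to 298 CPM) overlapped PBS-control mice (265 to 282 CPM). The call was lost in 9 of 12 fits that left out a mouse.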

How the results depend on the processing

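The 5 called channel genes kept the sign of their log2 fold change under every alternative and with each mouse left out. In PBS-acetate against PBS-control mice the 4 channel genes called by edgeR became 1 at an adjusted p below 0.05 (Cacna1i) and 0 to 5 with each mouse left out. The interaction call of 1 became 0 with DESeq2's size factors, 0 at an adjusted p below 0.05, 3 by DESeq2's Wald test and 0 to 1 with each mouse left out. DESeq2's Wald test called 1 gene in tau-control against PBS-control mice and 2 for acetate in tau-injected mice, where edgeR called 0. The 7 partner genes called in PBS-acetate against PBS-control mice became 2 at an adjusted p below 0.05 and 0 to 10 with each mouse left out, and the 0 of other comparisons became 1 by DESeq2's Wald test for acetate in tau-injected mice, and 1 by that test and 0 to 1 with each mouse left out in the interaction. These partner counts were added after seeing the data. The cause of these shifts was not tested. Genes near the threshold included Cacna1d and Scn2b, called in some settings only. Counts were low for Scn9a, Cacna2d4, Hcn4 and Scn7a (means of 22.6, 24.5, 34.8 and 55.3). Scn9a, Hcn4 and Scn7a also varied widely among mice, at biological coefficients of variation of 60.5%, 35.1% and 31.0%, against 12.8% for Cacna2d4.

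Replicate numbers are shared between groups, but deviations of same-numbered mice correlated at only -0.0862 to 0.144, 1 of 12 pairs above 0.1, so the numbers were not taken as pairs. With the replicate block, 2 channel genes (Cacna1i, Cacna2d1) were called in the interaction, 4 in PBS-acetate against PBS-control mice (Cacna1c no longer among them) and 0 in the other 3 comparisons.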
